A study of Homo sapiens with 12 samples.

Results

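The mitosis and kinetochore genes are a hand-made list of 42 genes, taken by name, out of 22379 protein-coding genes in a spike-in-normalised RNA-seq table of U2OS cells, a human osteosarcoma line. All 42 genes were found, each in 1 row, and all 42 passed the filter on low values. The table holds 12 libraries of polyadenylated RNA, 2 for each of 6 groups. Cells had been transfected with a nontargeting guide (NONT), a guide against NUP93, which encodes a nuclear pore subunit, or a guide against EXOSC5, which encodes a core subunit of the RNA exosome. Each of these 3 genotypes was kept for 8 h with the solvent DMSO (untreated) or with 1 µM triptolide, a drug that targets the XPB subunit of TFIIH and leads to loss of RNA polymerase II. All cells carried the Cas9 plasmid transiently and had been selected with puromycin, so the knockouts (NUP93-KO and EXOSC5-KO) are uncloned pools. The methods describe a selection and an expansion that were each a day shorter for the NUP93 and EXOSC5 guides than for the other guides, so genotype and time since transfection cannot be told apart. No source used here says that replicates were separate cultures, and p-values therefore measure the spread between libraries labelled as replicates.

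The products of these genes build the spindle, attach chromosomes to it and split the cell. Kinetochores assemble on centromeric chromatin and bind microtubules through the NDC80 complex, while checkpoint kinases hold back the anaphase-promoting complex until every chromosome is attached. Most of these genes are transcribed late in the cell cycle and their mRNA falls again after division, through the MuvB complexes that bind CHR elements and NF-Y, which binds CCAAT boxes. Dividing cultures such as U2OS therefore hold cells with much and cells with little of these mRNAs, and in bulk RNA fewer mitotic cells and less RNA per cell cannot be told apart.

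The genes also share promoter letters that the choice of the list did not use. RefSeq promoter windows (GRCh38.p14) were at hand for 36 of the 42 genes, as 40 windows because AURKB, ECT2, MIS12 and PTTG1 have more than 1. Windows for AURKA, TTK, KNL1, BIRC5, TPX2 and UBE2C were not analysed here. The 250 bases before each start were searched on both strands for the CHR letters. These were TTTGAA, which reads as TTCAAA on the opposite strand, and TTTAAA, which is its own reverse complement. The windows were also searched for CCAAT, which reads as ATTGG on the opposite strand. CHR letters stood in 27 of the 40 windows (67.5%), against 21.9% of all 35116 windows in the table and 15.7% of the 15531 windows of genes tested here. CCAAT stood in 32 windows (80.0%), against 32.0% and 32.6%, and both stood in 23 windows (57.5%), against 7.64% and 5.61%. DSN1, KIF2C, NDC80 and NUF2 had neither. These matches describe letters in a window and identify no bound site.

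The 120 bases before the RefSeq start are shown for 7 genes that span the range of responses in NONT cells described below. INCENP, CDCA8, KIF18A and MKI67 kept little mRNA under triptolide there, and KIF4A, PTTG1 and DEPDC1B kept more. In NUP93-KO cells MKI67 kept 35.1%, close to the list's median of 35.3%. Bases are written 5′ to 3′ on the gene's strand, and capitals mark the CHR letters and CCAAT or ATTGG. The stretches are chr11:62123891-62124010 on the plus strand for INCENP, chr1:37692396-37692515 on the plus strand for CDCA8, chr11:28108157-28108276 on the minus strand for KIF18A and chr10:128126424-128126543 on the minus strand for MKI67. They are chrX:70289984-70290103 on the plus strand for KIF4A, chr5:160421735-160421854 on the plus strand for PTTG1 (the farther upstream of its starts) and chr5:60700167-60700286 on the minus strand for DEPDC1B. In CDCA8 and MKI67 the CHR letters run on into ATTGG, sharing the letters between them, and in PTTG1 a CCAAT overlaps an ATTGG. DEPDC1B is shown because its stretch holds CCAAT and no CHR letters.
INCENP: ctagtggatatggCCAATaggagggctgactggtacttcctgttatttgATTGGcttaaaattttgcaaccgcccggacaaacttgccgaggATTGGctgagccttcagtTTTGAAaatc
CDCA8: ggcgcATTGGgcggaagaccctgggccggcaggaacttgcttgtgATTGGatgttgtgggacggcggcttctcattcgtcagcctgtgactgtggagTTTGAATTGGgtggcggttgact
KIF18A: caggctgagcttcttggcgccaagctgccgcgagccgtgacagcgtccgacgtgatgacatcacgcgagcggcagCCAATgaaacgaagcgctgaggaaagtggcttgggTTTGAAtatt
MKI67: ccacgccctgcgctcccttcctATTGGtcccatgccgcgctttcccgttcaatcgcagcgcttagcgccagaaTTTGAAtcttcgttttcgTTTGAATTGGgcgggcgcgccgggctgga
KIF4A: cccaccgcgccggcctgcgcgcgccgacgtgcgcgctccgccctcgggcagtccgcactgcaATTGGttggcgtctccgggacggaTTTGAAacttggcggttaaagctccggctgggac
PTTG1: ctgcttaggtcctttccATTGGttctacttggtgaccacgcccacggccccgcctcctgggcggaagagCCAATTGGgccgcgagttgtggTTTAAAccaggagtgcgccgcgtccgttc
DEPDC1B: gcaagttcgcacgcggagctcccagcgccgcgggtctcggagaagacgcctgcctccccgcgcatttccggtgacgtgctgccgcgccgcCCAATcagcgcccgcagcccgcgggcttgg

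The libraries held about 8.58 to 11.95 M reads, as far as the spike-in steps show, and ERCC spike-ins made up 0.246% to 0.830% of each. ERCC RNA had been added in proportion to counted cells, so a deposited value follows RNA per counted cell and an error in a count moves every gene of that library. The untreated NONT libraries differed most: the median gene was lower by 0.51 (log2) in replicate 1 than in replicate 2, against 0.25 or less in either direction within the other groups. Untreated, NUP93 was at 1395 and 1432 in NUP93-KO cells and 1753 and 2489 in NONT cells. EXOSC5 was at 216 and 148 in untreated EXOSC5-KO cells and 299 and 481 in NONT cells. Under triptolide NUP93 was at 801 and 1019 in NUP93-KO cells, overlapping the 1007 and 899 of NONT cells, and EXOSC5 reached 75.2 and 102 in EXOSC5-KO cells, below the 266 and 208 of NONT cells. In EXOSC5-KO NUP93 was at 1805 and 1618 untreated and 1153 and 1231 treated, and in NUP93-KO EXOSC5 was at 376 and 376 untreated and 289 and 323 treated. mRNA levels are an incomplete check of a pooled edit. Of 10 osteoblast-lineage and mesenchymal markers, VIM (45686 to 66974 untreated), COL1A1 (23577 to 57588) and RUNX2 (218 to 404) were expressed, while SP7 and IBSP were listed at 0 in every library and BGLAP reached 5.68. The summed level of 7 markers of other cell types was 58.1 to 133 untreated and 38.5 to 90.8 treated. Among these 7, CDH1 (32.2 to 69.7 untreated) and EPCAM (16.8 to 47.6) were highest, and CD3E was at 0 in every library.

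Without drug, the 42 genes made up 0.604% and 0.643% of all gene signal in the NONT replicates, 0.547% and 0.589% in the NUP93-KO replicates, and 0.448% and 0.445% in the EXOSC5-KO replicates. Under triptolide the same shares were 0.359% and 0.381%, 0.338% and 0.333%, and 0.254% and 0.254%. Every treated library lay below every untreated one, and in both states the genotypes kept the order NONT, NUP93-KO, EXOSC5-KO without overlap. Shares do not depend on the spike-in scale.

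**Figure D1:**
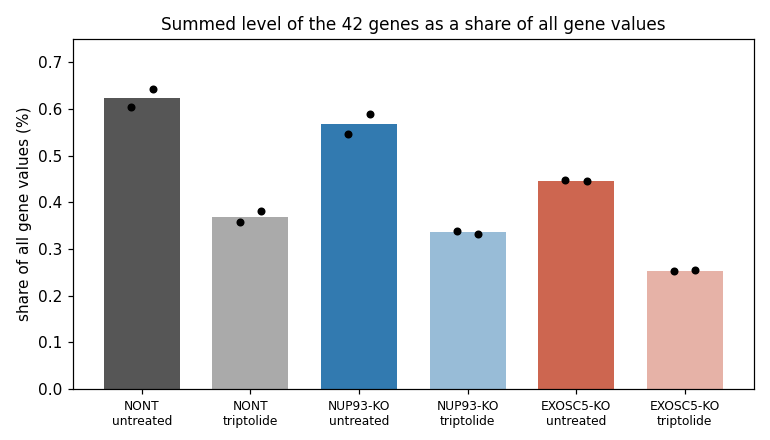
Share of all gene signal taken by the 42 mitosis and kinetochore genes (percent, vertical axis) in each of the 6 groups; bars are means and dots the 2 libraries. The share runs from 0.643% in an untreated NONT library to 0.254% in both treated EXOSC5-KO libraries.

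Per kilobase of transcript, over the untreated libraries, the level of the 42 genes ran from 57.7 for KNL1, the kinetochore scaffold that recruits the BUB kinases, through a median of 363, to 2488 for CDC20, the activator of the anaphase-promoting complex. Its ubiquitin-conjugating enzyme UBE2C (2159), the separase inhibitor securin PTTG1 (2142), the AURKA activator TPX2 (1791) and the survivin gene BIRC5 (1595) followed. The long mRNAs of CENPE (61.9), a kinetochore-bound kinesin, and ASPM (74.5), a spindle pole protein, and that of SPC24 (75.8), an NDC80 complex subunit, stood at the low end. These are ratios of mean values to transcript length and were not compared by a test.

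Triptolide lowered the mRNA of all 42 genes in NONT cells (limma, Benjamini-Hochberg adjusted p under 0.05), where 90.0% of all 13811 genes tested were also called lower. The kinase AURKA, which matures centrosomes, kept the least, 3.16% of its untreated mean. The median gene of the list kept 17.9%, and PRC1, which bundles midzone microtubules, kept the most, 54.4%. Without untreated NONT replicate 2 the calls of SPC25 (-0.42) and ASPM (-3.54) were lost, and fewer of all genes tested were called as well. The median response was then -2.11 for the list and -1.37 for all genes tested. Without treated NONT replicate 1 SPC25 alone of the 42 was not called. ASPM was at 786 and 1131 untreated and 69.2 and 64.5 treated in NONT. Its spread, pooled over all groups, includes a value of 0 in EXOSC5-KO treated replicate 2. The groups did not overlap for any of the 42, against 94.8% of all genes tested with every treated library lower. The median log2 response was -2.45 for the list and -1.62 for all genes tested, and 31 of the 42 fell by more than the median gene. Log2 fold changes are on the log2(value + 1) scale, which understates the change of low genes. The directions below hold on the spike-in scale, and MAD2L1, NUF2, SPC25, PRC1, HMMR, PTTG1, ANLN and DEPDC1B in NONT turned positive when every library was set to the same total.

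Among the kinases and checkpoint genes 8 of 8 fell in NONT, with a median log2 response of -3.00. AURKA (chr20:56369389-56392337, minus strand, 9 exons, GRCh38) was at 2654 and 3935 untreated and 125 and 83.1 treated. TTK, the kinase that starts the spindle checkpoint, was at 612 and 810 untreated and at 18 and 27.5 treated. Each treated value of both genes was far below the lower untreated one. With limma the log2 fold changes were -4.97 (SE 0.25, adjusted p = 9.3e-11) for AURKA and -4.92 (SE 0.33, adjusted p = 1.72e-09) for TTK. The centrosome kinase NEK2 (-3.96), the mitotic entry kinase PLK1 (-3.36) and the checkpoint kinase genes BUB1B (-2.64) and BUB1 (-1.92) fell by less, as did AURKB (-2.31), the catalytic subunit of the chromosomal passenger complex. MAD2L1, the checkpoint protein that binds CDC20, was at 678 and 949 untreated and 416 and 365 treated, a log2 fold change of -1.04 (SE 0.21, adjusted p = 0.000293, limma).

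The subunits of the chromosomal passenger complex kept unequal shares. Its scaffold INCENP (chr11:62123998-62153169, plus strand, 19 exons) was at 1274 and 2531 untreated and 60.2 and 69.0 treated in NONT, and its borealin subunit CDCA8 (chr1:37692481-37709719, plus strand, 10 exons) at 1567 and 2273 against 72.9 and 76.9. The treated replicates lay close together and the groups far apart, with limma log2 fold changes of -4.78 (SE 0.29, adjusted p = 6.05e-10) and -4.64 (SE 0.23, adjusted p = 8.09e-11). BIRC5, the survivin subunit of the same complex, was at 4377 and 5580 untreated and 2058 and 1814 treated, and kept 38.9% where INCENP kept 3.40% and CDCA8 3.90%.

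Of the 10 centromere and kinetochore genes 10 fell in NONT (median -2.96). The 4 subunits of the NDC80 complex did not keep equal shares: NDC80 kept 10.0% and SPC24 15.4%, while NUF2 kept 47.3% and SPC25 44.5%. SPC25 was at 217 and 510 untreated and 151 and 173 treated, with a log2 fold change of -1.04 (SE 0.38, limma adjusted p = 0.0177). That value rests on the untreated replicates, which lay far apart: it was -0.42 without untreated replicate 2 (limma adjusted p = 0.334) and -1.65 without untreated replicate 1 (limma adjusted p = 0.00225), and the call was also lost without treated replicate 1 and without a mean-variance trend. No test was made between subunits. MIS12 and DSN1, of the MIS12 complex, were at -3.64 and -3.33, and KNL1 was at -2.78. CENPA, the centromeric histone, was at -3.15, CENPF, a large kinetochore protein, at -3.27 and CENPE at -2.47.

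The 6 kinesin genes all fell in NONT (median -2.84), from KIF18A (-4.04), which aligns chromosomes, KIF11 (-3.32), which makes the spindle bipolar, and KIF23 (-3.25), the centralspindlin motor, through KIF2C (-2.42), a microtubule depolymerase, and KIF20A (-1.92), a midzone motor, to the chromokinesin KIF4A (-1.41). A near-identical copy of KIF4A, KIF4B, was at 2.41 to 19.0 across libraries, and reads of the pair may be split between them. All 5 spindle and midzone genes fell (median -1.72), with ASPM at -3.80, TPX2 at -2.22, the spindle assembly factors DLGAP5 and HMMR at -1.72 and -1.07, and PRC1 at -0.86 (SE 0.20, limma adjusted p = 0.000944), from 1817 and 2597 to 1281 and 1119.

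All 4 anaphase regulators fell in NONT (median -2.01). The log2 response was -2.90 for UBE2C, -2.29 for CDC20 and -1.74 for ESPL1, which encodes separase. PTTG1 was at 1402 and 2123 untreated and 807 and 751 treated and kept 44.2%. PTTG2, its copy, was listed at 0 in every library. Both cytokinesis genes fell, with log2 responses of -1.66 for the RhoGEF gene ECT2 and -1.11 for the anillin gene ANLN. TOP2A, which encodes the topoisomerase that untangles chromatids, was at -2.11. MKI67 (chr10:128096659-128126423, minus strand, 15 exons), the Ki-67 gene, was at 2388 and 4573 untreated and 419 and 248 treated, a log2 response of -3.35. DEPDC1 was at -1.40. DEPDC1B (chr5:60596912-60700190, minus strand, 11 exons) was at 392 and 555 untreated and 276 and 209 treated, a limma log2 fold change of -0.96 (SE 0.25, adjusted p = 0.00229).

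**Figure D2:**
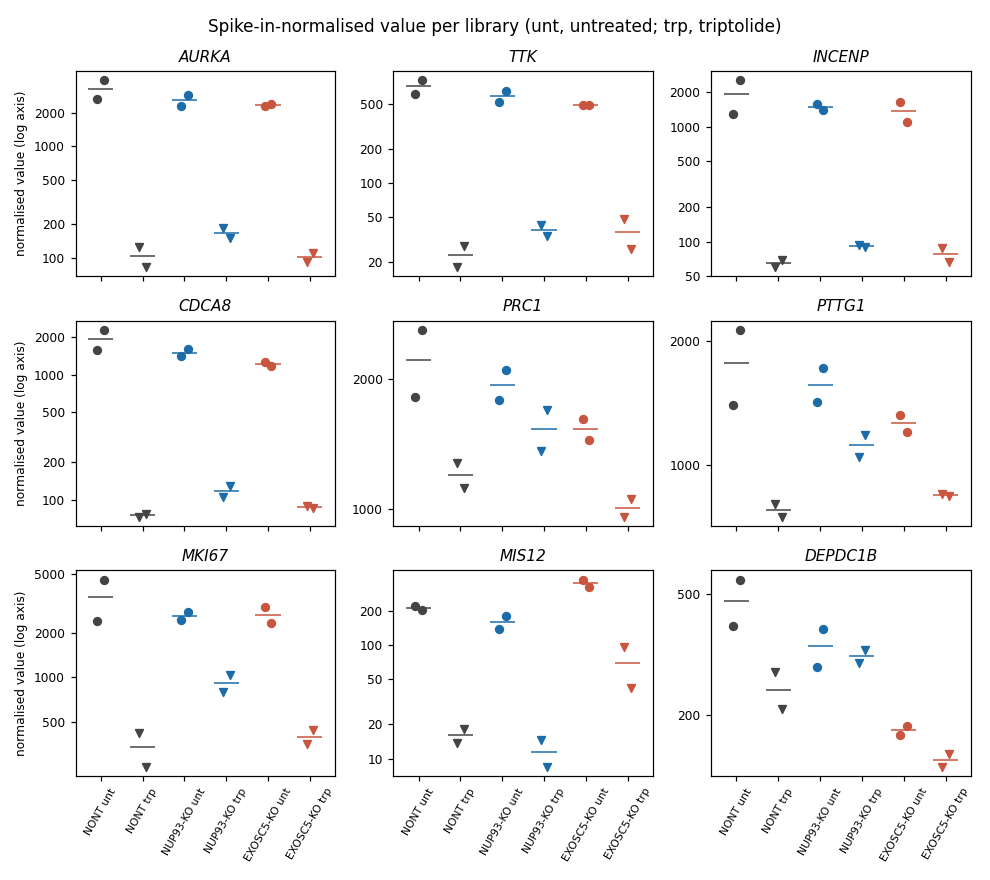
Spike-in-normalised value of 9 of the genes (log vertical axis) in every library; circles are untreated, triangles treated with triptolide, and lines are means of 2. AURKA, TTK, INCENP and CDCA8 drop to between 18 and 186, while treated and untreated NUP93-KO libraries overlap for DEPDC1B.

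In NUP93-KO cells triptolide lowered 35 of the 42 genes, where 55.1% of all genes tested were called lower. In EXOSC5-KO cells it lowered 41, where 64.3% were. None was called higher in either, where 0.138% and 0.0796% of all genes tested were. The groups did not overlap for 41 of the 42 in NUP93-KO (79.1% of all genes tested) and for 42 in EXOSC5-KO (88.0%). The genes kept 6.23% to 93.0% of their untreated means in NUP93-KO, with a median of 35.3%, and 4.28% to 80.1% in EXOSC5-KO, with a median of 31.4%. Median log2 responses were -1.50 and -1.67, against -0.92 and -1.08 for all genes tested, and 30 and 32 of the 42 lay below the median gene.

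The genes that kept least were largely shared. In NUP93-KO, INCENP was at 1554 and 1402 untreated and 93.8 and 90.3 treated (log2 fold change -3.99, SE 0.29, limma adjusted p = 1.46e-08). AURKA was at 2298 and 2917 against 186 and 150 (-3.95, SE 0.25, adjusted p = 3.34e-09, limma) and TTK at 518 and 653 against 42.4 and 33.8 (-3.91, SE 0.33, adjusted p = 6.54e-08, limma). The kinetochore gene MIS12 (chr17:5486285-5490814, plus strand, 3 exons) followed, at 137 and 180 against 14.6 and 8.55 (-3.70, SE 0.41, limma adjusted p = 9.41e-07). All 4 genes ended far below their untreated values in both replicates.

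In EXOSC5-KO, AURKA was at 2327 and 2409 untreated and 92.3 and 110 treated (log2 fold change -4.54, SE 0.25, limma adjusted p = 8.73e-10). INCENP was at 1635 and 1104 against 88.6 and 66.9 (-4.11, SE 0.29, adjusted p = 9.54e-09, limma) and CDCA8 at 1257 and 1163 against 89.2 and 85.7 (-3.77, SE 0.23, adjusted p = 1.98e-09, limma). ASPM (chr1:197084121-197146694, minus strand, 28 exons) was at 788 and 733 untreated, at 70.1 in treated replicate 1 and listed at 0 in treated replicate 2, though it lay at 64.5 to 85.5 in the treated libraries of the other genotypes. Its fitted value of -6.50 (SE 1.10, limma adjusted p = 7.81e-05) rests on that 0 and on the pseudocount: it was -7.00 with a pseudocount of 0.5, -4.77 with 10 and -3.42 without the library at 0.

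The 7 genes not called in NUP93-KO were PTTG1, ANLN, NUF2, HMMR, SPC25, DEPDC1B and PRC1. DEPDC1B was at 288 and 384 untreated and 297 and 327 treated, so its groups overlapped (log2 difference -0.09, SE 0.25, limma adjusted p = 0.783). NUF2 was at 450 and 518 against 341 and 428 (-0.34, SE 0.22, adjusted p = 0.211, limma), ANLN at 5222 and 6226 against 4604 and 4410 (-0.34, SE 0.20, adjusted p = 0.164, limma), and HMMR at 702 and 768 against 557 and 597 (-0.35, SE 0.22, adjusted p = 0.193, limma). For these 3 genes the treated values were all under the untreated ones, by less than the test could call. ASPM, at 645 and 775 untreated and 81.5 and 85.5 treated, was called, though its pooled spread includes the 0 of EXOSC5-KO treated replicate 2. Without either untreated NONT library, which enters the NUP93-KO responses only through the pooled spread, ANLN (limma adjusted p = 0.0316 and 0.0315) and PTTG1 were called and ASPM was not. Over all single libraries left out, 28 to 36 genes were called in NUP93-KO and 33 to 41 in EXOSC5-KO.

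In EXOSC5-KO DEPDC1B alone was not called, at 172 and 184 untreated and 136 and 150 treated (-0.32, SE 0.25, limma adjusted p = 0.271). NUF2 fell from 368 and 430 to 295 and 260 (-0.52, SE 0.22, adjusted p = 0.0476, limma), MAD2L1 from 570 and 535 to 377 and 391 (-0.52, SE 0.21, adjusted p = 0.0419, limma) and PTTG1 from 1322 and 1206 to 855 and 843 (-0.57, SE 0.21, adjusted p = 0.023, limma). These calls were near the threshold: of 22 alternative settings, 10 kept the call for NUF2, 10 for MAD2L1 and 15 for PTTG1.

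Over all genes tested, 55.1% and 64.3% were called lower in NUP93-KO and in EXOSC5-KO. By role, the number called lower there was 8 and 8 of 8 kinases and checkpoint genes and 8 and 10 of 10 centromere and kinetochore genes. For passenger partners it was 3 and 3 of 3, and for kinesins 6 and 6 of 6. It was 3 and 5 of 5 spindle and midzone genes, 3 and 4 of 4 anaphase regulators, 1 and 2 of 2 cytokinesis genes, 2 and 2 for TOP2A and MKI67, and 1 and 1 of 2 in the DEPDC1 family. The median log2 response ran from -3.67 and -3.77 for the passenger partners to -0.38 and -0.87 for the DEPDC1 family.

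**Figure D3:**
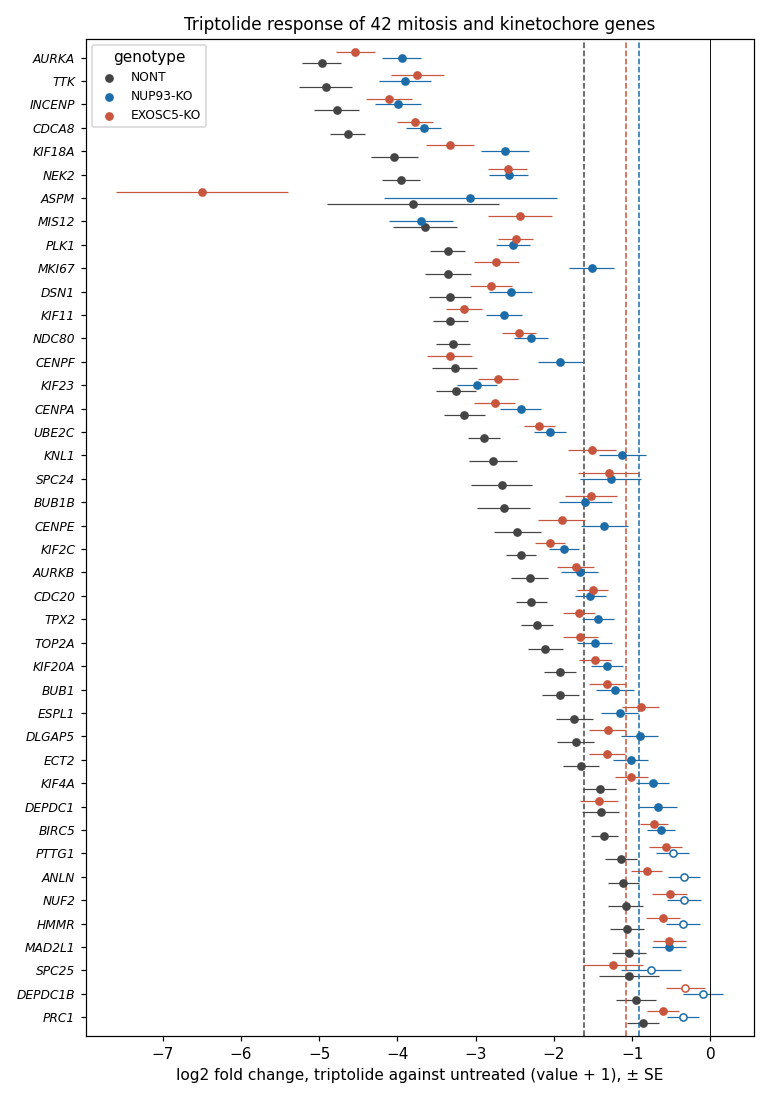
Log2 response to triptolide of each of the 42 genes in NONT, NUP93-KO and EXOSC5-KO; filled points passed the test (adjusted p under 0.05), open points did not, and dashed lines mark the median of all genes tested. The 8 open points are the 7 genes not called in NUP93-KO and DEPDC1B in EXOSC5-KO.

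The order of the genes was alike across genotypes, which do not share libraries: across the 42 genes, Spearman's rho with the NONT responses reached 0.944 in the NUP93-KO cells and 0.938 in the EXOSC5-KO cells, and the knockouts had a rho of 0.943 with each other. These values describe genes, which are no replicates of one another. AURKA, ASPM, CDCA8, INCENP, KIF18A and TTK were among the 10 deepest responses in every genotype, and ANLN, BIRC5, DEPDC1B, HMMR, MAD2L1, NUF2, PRC1 and PTTG1 among the 10 shallowest. The order did not follow transcript length (rho 0.01, 0.08 and -0.07 in NONT and in the NUP93 and EXOSC5 knockouts) or untreated value (-0.01, -0.01 and -0.09).

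The size of these changes depends on the scale. With every library set to the same total, the median of all genes tested was -0.32 in NONT cells, -0.36 with the NUP93 guide and -0.29 with the EXOSC5 guide. The list lay 0.80, 0.57 and 0.59 below it, and 0.83, 0.58 and 0.60 below it on the spike-in scale. Rescaling multiplies every gene of a library by the same factor. This distance can therefore change only through the pseudocount, and the near match is no separate evidence. In NONT 30 of the 42 were then called lower and 4 higher, where 38.2% and 15.2% of all genes tested were. In NUP93-KO 28 were lower and 3 higher (39.3% and 13.9%), whereas EXOSC5-KO had 30 and 2 (36.8% and 14.7%). With median-of-ratios scaling 26 were lower and 9 higher in NONT (30.5% and 26.8%), 23 and 8 with the NUP93 guide (30.0% and 26.2%) and 24 and 8 with the EXOSC5 guide (28.9% and 25.8%). With the same total 8 genes had positive values in NONT cells and 7 in the cells of either knockout. MAD2L1, NUF2, PRC1, HMMR, PTTG1 and DEPDC1B did so in every genotype, ANLN in NONT and NUP93-KO, SPC25 in NONT and BIRC5 in EXOSC5-KO. The 4 called higher in NONT were PRC1, HMMR, ANLN and DEPDC1B, and PRC1, for example, was at 0.48 with the same total and 0.78 with median of ratios. AURKA, TTK, INCENP and CDCA8 were lower on all of them.

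Without drug, no gene of the list was called in NUP93-KO against NONT (limma), where 0.00724% of all genes tested were called lower. KNL1 was the 1 gene of the 42 that was lower at an unadjusted p under 0.05 (2.45% of all genes tested). The groups did not overlap, with NUP93-KO lower, for 10 of the 42, against 12.8% of all genes tested. The list's median log2 difference was -0.26, against -0.09 for all genes tested. The smallest unadjusted p values belonged to KNL1 (505 and 902 in NONT, 352 and 500 in NUP93-KO, log2 difference -0.69, SE 0.30), CENPA (-0.49, SE 0.26) and DEPDC1B (-0.49, SE 0.25), each with an adjusted p of 1 in limma. On the same-total scale none was called either, where 0.355% of all genes tested were lower.

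In untreated EXOSC5-KO cells 40 of the 42 differences from NONT were negative on the spike-in scale, and 1 gene was called lower. This was DEPDC1B, at 172 and 184 against 392 and 555 (log2 difference -1.39, SE 0.25, limma adjusted p = 0.0168). Of all genes tested 0.0362% were called lower. An earlier result of these same data had already named DEPDC1B, so this call is not independent of that result. The call was lost without either untreated EXOSC5-KO library, without untreated NONT replicate 2 and without a mean-variance trend, and 7 genes were called without untreated NONT replicate 1, the lower of the NONT replicates, where 0.384% of all genes tested were. At an unadjusted p under 0.05, 20 of the 42 were lower (2.46% of all genes tested), and the groups did not overlap, with EXOSC5-KO lower, for 27 (9.20%). The median log2 difference was -0.50 for the list and 0.07 for all genes tested, and 41 of the 42 lay below the median gene. The exception was MIS12, at 373 and 320 in EXOSC5-KO cells and 218 and 202 in NONT cells, a log2 difference of 0.72 that was not called.

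With every library set to the same total, 19 of the 42 were called lower in EXOSC5-KO than in NONT and none higher, where 2.09% of all genes tested were called lower. The median log2 difference was then -0.52 for the list and 0.04 for all genes tested, close to -0.50 and 0.07 on the spike-in scale. Median-of-ratios scaling called 22 (3.74% of all genes tested) and a scale that equalises mitochondrially encoded mRNA called 27 (5.21%). The mitochondrial scale moved all genes tested to a median of -0.30. The list's median minus that of all genes tested was -0.57 on it, as on the spike-in scale. The largest of the 19 differences were DEPDC1B (-1.41, SE 0.14, limma adjusted p = 0.00053), the separase gene ESPL1 at 648 and 499 against 857 and 1382 before rescaling (-0.96, SE 0.13, adjusted p = 0.00289, limma) and BIRC5 at 3190 and 3047 against 4377 and 5580 (-0.69, SE 0.07, limma adjusted p = 0.000601). All 4 anaphase regulators were among them, with the passenger genes AURKB, BIRC5 and CDCA8, the kinase gene PLK1 and the checkpoint gene MAD2L1. KIF11, KIF20A and KIF2C, TPX2, PRC1, DLGAP5, NDC80, ANLN, TOP2A and DEPDC1B made up the rest. NDC80 was the only 1 of 10 centromere and kinetochore genes.

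**Figure D4:**
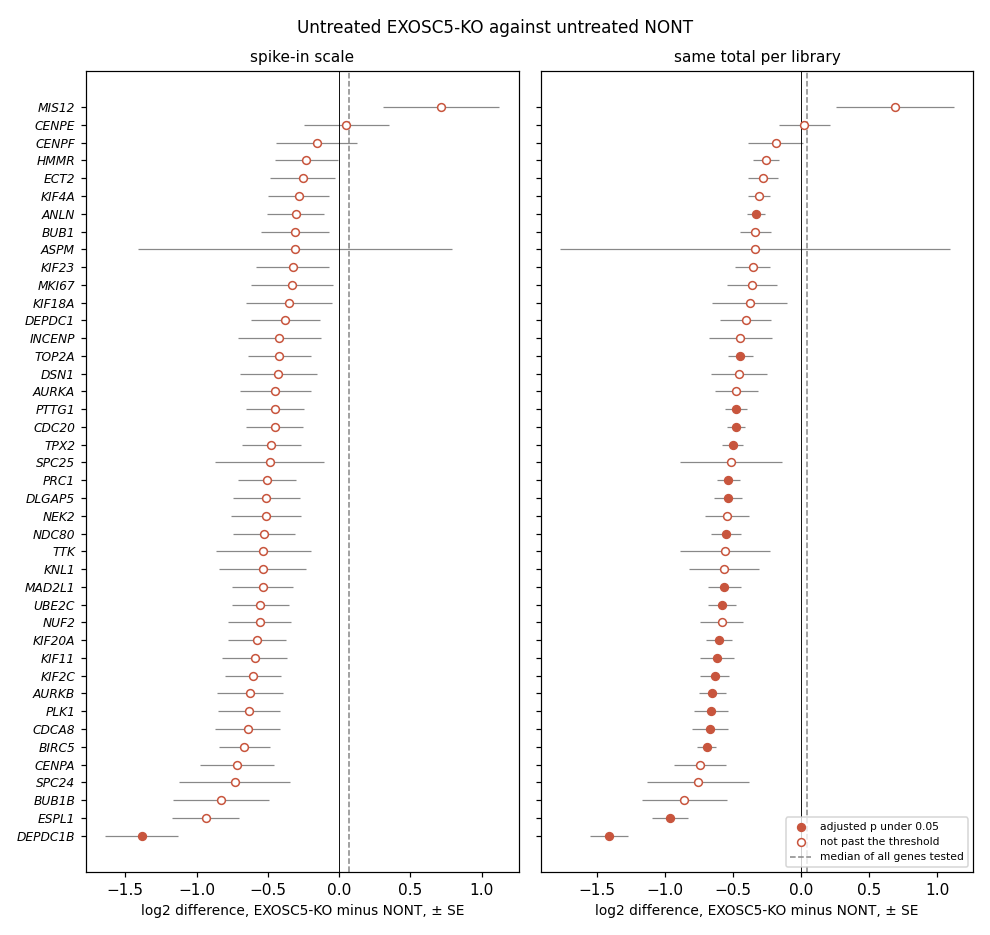
Log2 difference between untreated EXOSC5-KO and NONT cells for each of the 42 genes, on the spike-in scale (left) and with every library set to the same total (right); filled points passed the test, and the dashed lines mark the median of all genes tested. DEPDC1B alone is filled on the left and 19 genes are filled on the right. The order of the genes is alike because rescaling moves all genes of a library together.

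Between the knockouts without drug, no gene was called lower in EXOSC5-KO on the spike-in scale (0.0217% of all genes tested were), 4 were lower at an unadjusted p under 0.05 (1.22%), and 22 did not overlap with EXOSC5-KO lower (11.3%). The median log2 difference was -0.21, against 0.15 for all genes tested. DEPDC1B (-0.90, SE 0.25, adjusted p = 0.249), ESPL1 (-0.70, SE 0.23, adjusted p = 0.354) and MIS12 (1.13, SE 0.41, adjusted p = 0.416) had the smallest p values in limma. On the same-total scale 12 of the 42 were called lower, where 1.54% of all genes tested were. The 12 were AURKB, PLK1, BIRC5, KIF23, KIF2C, TPX2, PRC1, CDC20, UBE2C, PTTG1, ESPL1 and DEPDC1B. The contrast uses the same EXOSC5-KO libraries as the one against NONT.

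Responses to triptolide were then compared between genotypes. The difference in log2 response between NUP93-KO and NONT had a median of 0.75 over the list and 0.74 over all genes tested on the spike-in scale, and of -0.02 over both with the same total per library. MKI67 alone was called (1.83, SE 0.41, limma adjusted p = 0.0488), where 0.760% of all genes tested were called as losing less. At an unadjusted p under 0.05, 26 of the 42 lost less (41.3% of all genes tested). Shares of all genes tested that follow in this paragraph are shares called. MKI67 was at 2435 and 2748 untreated and 790 and 1029 treated in NUP93-KO, and at 2388 and 4573 and then 419 and 248 in NONT. The adjusted p of MKI67 ran from 0.00343 to 0.509 over 22 alternative settings and was 0.301 on the same-total scale. The count for the list was 37 without untreated NONT replicate 1, where 51.0% of all genes tested lost less, and 8 without treated NONT replicate 1, where 2480 of the 13811 did, a like share. It was 1 without treated NUP93-KO replicate 1 (0.565%) and 0 without any other single library.

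Between EXOSC5-KO and NONT the median difference in response was 0.56 over the list and 0.57 over all genes tested on the spike-in scale, and 0.02 and 0.04 with the same total per library. No gene was called, where 0.319% of all genes tested were called as losing less. At an unadjusted p under 0.05, 12 of the 42 lost less (23.1% of all genes tested). The most negative difference was -2.70, for ASPM, which was listed at 0 in treated EXOSC5-KO replicate 2. This ASPM difference was -5.77 without treated EXOSC5-KO replicate 1, which leaves the library at 0. NEK2 (1.37, SE 0.35, adjusted p = 0.105), KNL1 (1.27, SE 0.43, adjusted p = 0.172) and PLK1 (0.87, SE 0.31, adjusted p = 0.176) had the smallest p values in limma. Without untreated NONT replicate 1 the count was 26, where 38.2% of all genes tested were called. Between the knockouts no gene was called in either direction (0.00724% of all genes tested were called as losing less in EXOSC5-KO). Of the 42 differences 34 were negative, with a median of -0.19 over the list and -0.16 over all genes tested. At an unadjusted p under 0.05, CENPF, MKI67, DEPDC1 and ASPM lost more in EXOSC5-KO (4 of the 42, against 3.09% of all genes tested) and MIS12 lost less (1 of the 42, against 1.23%). The smallest p values were those of CENPF (-1.42, SE 0.41, adjusted p = 0.597), MKI67 (-1.22, SE 0.41, adjusted p = 0.962) and DEPDC1 (-0.76, SE 0.34, adjusted p = 0.984) in limma. Without treated EXOSC5-KO replicate 1, which leaves the treated library that lists ASPM at 0, ASPM was called as losing more (0.116% of all genes tested were). For DEPDC1B the differences were 0.86 for NUP93-KO minus NONT (SE 0.36, limma adjusted p = 0.0947), 0.64 for EXOSC5-KO minus NONT (SE 0.36, adjusted p = 0.255, limma) and -0.23 for EXOSC5-KO minus NUP93-KO (SE 0.36, adjusted p = 0.984, limma). The comparisons with NONT share its 4 libraries.

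Other genes of mitosis, in lists made by function, were measured under triptolide as well. Of 33 other kinetochore and centromere genes 33 fell in NONT cells, 21 with the NUP93 guide and 27 with the EXOSC5 guide. Of all genes tested 90.0%, 55.1% and 64.3% were called lower in the same genotypes. A gene counted as having fallen in these lists was one called lower. In NONT the 33 ran from CENPC (-5.48), which anchors the kinetochore to centromeric chromatin, to CENPH (-0.92). Of 28 other mitotic kinesin, spindle and cytokinesis genes 28, 22 and 24 fell, from the kinesin KIF18B (-5.72) to the augmin subunit gene HAUS4 (-0.85). Of 18 cohesin and condensin genes 17, 12 and 16 fell, from the cohesin release factor WAPL (-3.90) to NCAPD3 (-0.38, not called). Of 17 genes of the anaphase-promoting complex and its partners 17, 11 and 14 fell, from its inhibitor FBXO5 (-8.03, with treated values so low that the pseudocount bears on it) to ANAPC16 (-0.71). Of 13 transcriptional regulators of mitotic genes 13, 10 and 11 fell, from LIN54 (-4.58), the MuvB subunit that reads the CHR, to RBL2 (-0.59). On the same-total scale, in NONT, 13 were lower and 3 higher of the 33 kinetochore and centromere genes, 16 and 1 of the 28, 8 and 2 of the 18, 5 and 4 of the 17 and 6 and 4 of the 13, against 38.2% lower and 15.2% higher over all genes tested, and CENPH, HAUS4, NCAPD3, ANAPC16 and RBL2 had positive values.

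Without drug, none of these genes was called in EXOSC5-KO against NONT on the spike-in scale. On the same-total scale 8 of the 28 other kinesin, spindle and cytokinesis genes, 5 of the 18 cohesin and condensin genes, 2 of the 33 other kinetochore genes, 2 of the 13 regulators and 1 of the 17 genes of the anaphase-promoting complex were lower, where 2.09% of all genes tested were. There 1 kinetochore gene, KNTC1 (1.11), was higher (2.79% of all genes tested). Genes that p53 induces had mostly positive differences in the same comparison, with a median of 0.51 (log2) on the spike-in scale, and 10 of 24 were higher at an unadjusted p under 0.05 (6.03% of all genes tested) with 0 called (0.485%). With the same total 8 of 24 were called higher (2.79% of all genes tested). GDF15, a secreted stress factor, had the largest difference (1.39, SE 0.33, limma adjusted p = 0.102). The summed level of the 24 genes was 26525 to 37101 in untreated NONT, 32511 to 35010 in NUP93-KO and 43293 to 45633 in EXOSC5-KO, and its part in the lower mitotic mRNAs was not tested.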

How the data were processed

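Polyadenylated RNA was sequenced from 12 U2OS libraries. Per the labels and methods, the authors quantified reads with kallisto 0.46.1 against GRCh38 cDNA, kept strand, summed to genes, divided by DESeq2 size factors from the 92 ERCC spike-ins and kept protein-coding genes. The deposited values are such a normalised signal, not counts. Only 19.1% to 29.7% of low gene values were whole reads (within 0.05 read), so no count model was fitted. Gene IDs were matched to symbols through GENCODE 44 (19584 of 22379), which also gave positions and lengths, and promoter windows came from RefSeq (GRCh38.p14).

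Genes with an untreated mean of at least 10 (13811) entered 1 limma fit (limma 3.58.1, R 4.3.3) of log2(value + 1) on 6 group means, with a mean-variance trend, two-sided tests and Benjamini-Hochberg adjustment over all genes, called under 0.05. The code was tested on simulated data. Members and lists were chosen with earlier results of these data known. Full statistics were given for the 4 deepest and 4 shallowest responses and for called members or the 3 smallest p-values of other contrasts. They were also given for DEPDC1B, because an earlier result of these data had named it. Extreme members of the other lists were mostly given by their log2 value alone. Further members are named for their role with their values. Alternatives were other pseudocounts, filters, scales, no mean-variance trend, only the groups compared, a replicate block and leaving out each library. Deviations of same-numbered replicates correlated between -0.05 and 0.04 over 15 pairs of groups, so the numbers were not taken to pair libraries.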

Additional observations from a re-analysis of the deposited data

Results flagged for a closer look

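MKI67, the Ki-67 gene, differed between genotypes in its response to triptolide: the log2 response in NUP93-KO minus that in NONT was 1.83 (SE 0.41, limma adjusted p = 0.0488), and the difference itself was tested. The result stayed past the threshold in 6 of 22 alternative settings, with values from 1.07 to 2.30, all positive. Both treated NUP93-KO libraries (790 and 1029) lay above both treated NONT libraries (419 and 248). The same difference had a median of 0.74 over all genes tested on the spike-in scale, so the median gene shared part of it. With the same total per library that median was -0.02, and MKI67 was at 1.07 and not past the threshold. The NONT untreated replicates, at 2388 and 4573, were far apart: without replicate 1 the difference was 2.30 (limma adjusted p = 0.00343) and without replicate 2 it was 1.37 (limma adjusted p = 0.162).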

How the results depend on the processing

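Of 198 alternative values for the 9 counts of members, 164 equalled the reported count or stayed within 1.5 times of it. Several reported counts were 0, so part of the 164 are a 0 that stayed 0. Leaving out a library outside a comparison alters only the pooled spread, so the 164 are by themselves no measure of stability. Median-of-ratios scaling gave 26, 23 and 24 members lower after triptolide in NONT, NUP93-KO and EXOSC5-KO. Untreated EXOSC5-KO against NONT gave 19 lower with the same total per library, 22 with median of ratios, 27 with the same mitochondrial sum, 0 without the mean-variance trend and 0 to 7 when single libraries were left out; against NUP93-KO it gave 12, 14 and 14 on those 3 scales (1.54%, 2.09% and 1.48% of all genes tested). Members losing less in NUP93-KO than in NONT numbered 0 with a pseudocount of 0.5, no filter, the same total, median of ratios, the same mitochondrial sum, no trend or the replicate block, 5 with an untreated mean of at least 50 (9.01% of the 11667 genes then tested), and 0 to 37 when single libraries were left out, the 37 where 51.0% of all genes tested were called. In EXOSC5-KO against NONT they numbered 0 to 26, the 26 where 38.2% were. The cause was not tested.

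Of 902 alternative values for named genes, 811 kept direction and side of the threshold, 48 no longer passed it, 18 newly passed it and 25 changed sign. With the same total and with median of ratios, responses in NONT became 0.48 and 0.78 for PRC1, 0.38 and 0.68 for DEPDC1B, 0.30 and 0.60 for SPC25 and 0.30 and 0.60 for MAD2L1. In NUP93-KO they became 0.47 and 0.80 for DEPDC1B, 0.23 and 0.55 for NUF2, 0.23 and 0.55 for ANLN and 0.22 and 0.54 for HMMR. In EXOSC5-KO they became 0.47 and 0.74 for DEPDC1B, 0.27 and 0.55 for NUF2, 0.27 and 0.55 for MAD2L1 and 0.22 and 0.50 for PTTG1. With single libraries left out, DEPDC1B in NUP93-KO ran from -0.30 (without its untreated replicate 1) to 0.11 (without its untreated replicate 2).

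With the replicate block, 42, 34 and 39 members were lower after triptolide (89.8%, 53.8% and 62.8% of all genes tested), 0, 1 and 0 without drug, and 0, 0 and 0 lost less. Groups hold 2 libraries and every value rests on counted cells, so a genotype difference shared by all genes cannot be told apart from an error in cell counts.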

Other observations

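Mitochondrially encoded mRNAs, which the mitochondrial RNA polymerase makes, kept more of their level than the mitotic genes. On the spike-in scale 90.0% of all genes tested were called lower in NONT, 55.1% with the NUP93 guide and 64.3% with the EXOSC5 guide. On that scale 5 of the 13 mitochondrially encoded mRNAs were called lower in NONT and 0 in the knockouts. They had median log2 responses of -0.41 in NONT cells, 0.28 with the NUP93 guide and 0.05 with the EXOSC5 guide, and MT-ND4 was called higher in NUP93-KO (0.56, SE 0.22, limma adjusted p = 0.0433), where 0.138% of all genes tested were. On the same-total scale 12 of 13 were called higher in each genotype, where 15.2%, 13.9% and 14.7% of all genes tested were. Of 24 genes that p53 induces, 24 were called lower in NONT cells, 20 with the NUP93 guide and 21 with the EXOSC5 guide. These counts stand against the same shares of all genes tested. Their medians were -2.19, -1.72 and -1.84, against -1.62, -0.92 and -1.08 for all genes tested. With the same total 16 were lower and 4 higher in NONT (38.2% and 15.2% of all genes tested). In NONT they ran on the spike-in scale from BBC3 (-7.23), the PUMA gene, to RRM2B (-0.87, but 0.47 on the same-total scale), a ribonucleotide reductase subunit gene.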
